A study of Danio rerio with 2 samples.

Results

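The genes described here encode the machinery of oxidative phosphorylation. They were taken by name: every gene of the filtered table with at least 10 UMIs (unique molecular identifiers, each standing for 1 captured transcript) whose symbol begins with mt-, ndufa, ndufb, ndufc, ndufs, ndufv, uqcr, sdh, cox4, cox5, cox6, cox7, cox8 or atp5, ignoring case. This gave 112 of the 18723 genes, 13 encoded by the mitochondrial genome and 99 by the nuclear genome. A further 8 genes met the name rule with fewer UMIs, among them ndufs1 with 5 UMIs, and were left out. No measured level other than this minimum entered the choice.

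Oxidative phosphorylation takes place in the inner mitochondrial membrane. Complexes I and II pass electrons from nutrients to ubiquinone, complex III passes them to cytochrome c, and complex IV passes them to oxygen. Complexes I, III and IV pump protons as they do so, and complex V, the ATP synthase, uses the returning protons to make ATP. Both genomes contribute subunits to complexes I, III, IV and V, while every subunit of complex II is nuclear. By genome, the mitochondrial members comprised 7 subunits of complex I, 1 of complex III, 3 of complex IV and 2 of complex V. The nuclear members comprised 36 of complex I, 5 of complex II, 8 of complex III, 18 of complex IV and 18 of complex V, with 12 assembly factors, which help build complexes I and II, and 2 genes of the ATP synthase inhibitor.

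Both libraries came from wild-type AB zebrafish embryos at 24 hours post fertilisation, from which cells positive for a mitfa:GFP and a crestin:mCherry reporter were sorted. The mitfa gene encodes the factor that directs pigment cell fate, and crestin is expressed in neural crest. The ErbBi library came from embryos given an agent labelled ErbBi, taken to block ErbB receptors, and the untreated library from embryos without it. Dose, duration and the number of embryos were not used here. Each treatment had 1 library, so no difference has a replicate check, no test was possible, and an effect of the treatment cannot be told apart from one of the library.

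The libraries differed in size: 348 ErbBi cells gave 1113172 UMIs, at a median depth of 2732.5 per cell, and 999 untreated cells gave 7242348, at a median depth of 7099. Cells were divided by marker UMIs that belong to none of the members. Melanin-high cells had over 1% of UMIs in the melanin genes dct, pmela and tyrp1, gch2-high cells over 2% in gch2 (a pteridine enzyme of yellow pigment cells), twist1a-high cells at least 2 UMIs and 0.05% in twist1a (a transcription factor of crest mesenchyme), and foxd3-positive cells at least 1 UMI of foxd3 (an early neural crest factor). A cell that met several rules took the earliest in that order, which applied to 50 ErbBi and 200 untreated cells. In that order, with the remaining cells last, the classes held 64, 19, 126, 51 and 88 ErbBi cells and 404, 124, 83, 191 and 197 untreated cells. Melanin-high cells thus made up 18.4% of the ErbBi and 40.4% of the untreated library, and twist1a-high cells 36.2% and 8.31%.

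The summed marker lists followed the class names in both libraries, as they largely must where a rule uses a listed gene. Melanoblast markers reached 32547 UMIs per 1000000 (CPM) in melanin-high cells of the ErbBi library, against 3226 to 3962 in its other classes, and 35550 against 3542 to 4674 in the untreated library. Neural crest markers separated foxd3-positive cells less, at 1503 against 475 to 1134 CPM in the ErbBi library and 1422 against 394 to 1263 in the untreated library. Mesenchyme markers lay higher in the ErbBi library also outside the twist1a-high class, at 495 to 720 CPM, against 82.3 to 165 CPM in the untreated library. Remaining cells differed in erythroid markers, at 21.9 CPM in the ErbBi and 9167 CPM in the untreated library, where 1 cell had 79.4% of its UMIs in haemoglobin genes. They also differed in macrophage markers, at 483 CPM in the ErbBi and 29.0 CPM in the untreated library. The part of these markers in the levels below was not tested, except that values without the cells that stand apart are given.

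Transcripts of both genomes took a slightly smaller part of the ErbBi library. The mitochondrial members held 1.93% of ErbBi UMIs (95% interval 1.90 to 1.95) and 2.15% of untreated UMIs (2.14 to 2.16), a ratio of 0.899 (0.886 to 0.911). The nuclear members held 3.60% (3.56 to 3.63) and 3.97% (3.96 to 3.99), a ratio of 0.905 (0.896 to 0.915). Every interval is a 95% one for counting error alone. Both genomes therefore differed between the libraries by about the same factor. Within single cells the shares of the 2 genomes went together weakly, with a Spearman coefficient of 0.29 over 348 ErbBi cells and 0.191 over 999 untreated cells, where both shares come from the same UMIs. Few cells were rich in mitochondrial transcripts: 2 ErbBi and 11 untreated cells had over 5% of their UMIs there.

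Most nuclear members shared in the lower level. Of the 94 with at least 50 UMIs over both libraries, 24 were higher and 70 lower in the ErbBi library. Of all 7925 genes with that minimum, 4731 were higher and 3194 lower. The median log2 ratio was −0.14 for the members and 0.16 for all genes. Only 1 of the 94 was at least 1.5-fold higher and 2 were at least 1.5-fold lower, where 24.6% and 13.4% of all genes were. The ratios of the members were thus narrowly spread. Among genes with at least 500 UMIs the median was −0.14 for 83 members and −0.03 for all 2090 genes, with 1 member at least 1.5-fold higher and 1 lower (9.19% and 13.7% of all genes). Scaling by TMM factors in place of library totals lowers every log2 ratio between the libraries by 0.36, so that any log2 ratio here between 0 and 0.36 turns negative. On that scale 31 members were at least 1.5-fold lower and 0 higher, where 27.5% and 11.3% of all genes were. The distance of the member median from the all-gene median, −0.29, does not depend on the scaling.

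**Figure D1:**
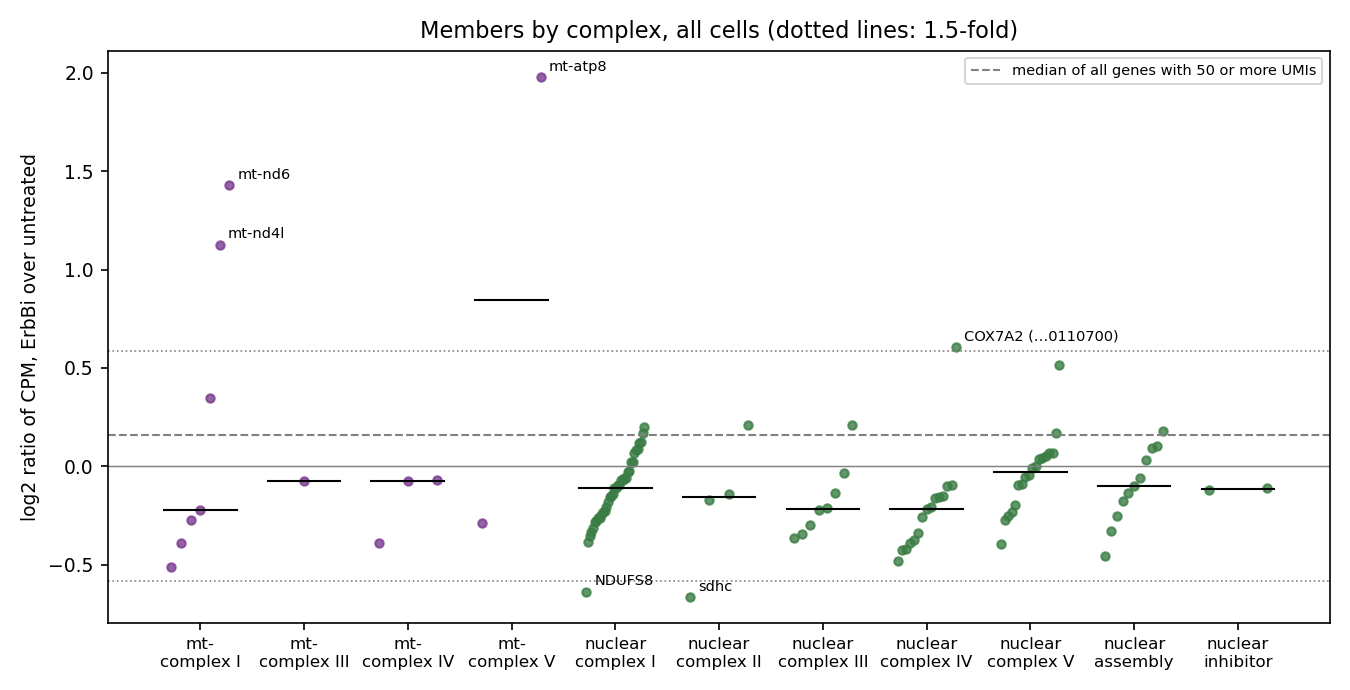
Each point is 1 member with at least 50 UMIs over both libraries, placed by complex and genome (horizontal) and by its log2 ratio of CPM, ErbBi over untreated, over all cells (vertical), with a short line at each group's median and a dashed line at the all-gene median of 0.16. Most nuclear members lie below 0, while mt-atp8 at 1.98, mt-nd6 at 1.43 and mt-nd4l at 1.13 stand above all others.

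By complex, the ratios of summed levels were lowest for complex IV and closest to 1 for complex V. Nuclear subunits of complex IV, the oxidase, had an ErbBi over untreated ratio of 0.843 (0.827 to 0.860), those of complex III 0.862 (0.832 to 0.893) and those of complex II 0.866 (0.800 to 0.937). Nuclear subunits of complex I had a ratio of 0.925 (0.905 to 0.945) and those of complex V 0.962 (0.945 to 0.980). The assembly factors, at 0.936 (0.845 to 1.03), could not be told from 1 within counting error. Complexes III and IV were below 1 in each of the 5 cell classes, at 0.762 to 0.991 and 0.724 to 0.930. So was the nuclear total, at 0.798 to 0.997, while complexes I, II and V reached at most 1.01, 1.08 and 1.04. The highest values of complex III and of the nuclear total, both in gch2-high cells, were within counting error of 1. This nuclear total rose above 1 on thinning to 1900 UMIs and in cells of 2000 to 6000 UMIs. The mitochondrial subunits did not follow the same order, with ratios of 0.850 for complex I, 0.950 for complex III, 0.897 for complex IV and 0.912 for complex V.

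Among the mitochondrial genes, 3 were higher by the largest factors in the ErbBi library, while most of the others were lower. mt-atp8, a short subunit of the ATP synthase, had 348 CPM in the ErbBi library (387 UMIs), against 88.1 CPM in the untreated library (638 UMIs), a ratio of 3.95 (3.47 to 4.48). mt-nd4l, a membrane subunit of complex I, had 82.6 against 37.8 CPM, a ratio of 2.18 (1.71 to 2.78), and mt-nd6, another membrane subunit, had 41.3 against 15.3 CPM, a ratio of 2.70 (1.87 to 3.83). These were the 3 of 13 mitochondrial members at least 1.5-fold higher, and 0 were 1.5-fold lower, where 24.6% of all genes were higher and 13.4% lower. All 3 stayed higher on the TMM scale, at log2 ratios of 1.62, 0.76 and 1.07. mt-nd5 had 227 against 179 CPM, a ratio of 1.27 (1.11 to 1.46), and its log2 ratio of 0.35 became −0.02 on the TMM scale.

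The other 9 mitochondrial genes had ratios of 0.700 to 0.951. The complex IV subunit mt-co3 had 2679 CPM in the ErbBi and 3513 CPM in the untreated library, and mt-nd3 of complex I had 269.5 and 385 CPM. mt-co2, which receives electrons from cytochrome c, had 5745 and 6043 CPM, a ratio of 0.951. mt-cyb, the one mitochondrial subunit of complex III, had 2748 and 2892 CPM, a ratio of 0.950. The median log2 ratio over the 13 genes was −0.07.

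Of these 3 genes, mt-atp8 and mt-nd4l lie beside genes that were lower in the ErbBi library, mt-atp6 at a ratio of 0.819 and mt-nd4 at 0.855, while mt-nd6 lies beside mt-nd5, itself at 1.27. In the RefSeq gene order mt-atp8 is followed by mt-atp6 and mt-nd4l by mt-nd4. In vertebrates each pair overlaps on a shared transcript, so the authors' counting decides whether, and for which gene, a UMI in the overlap counts. mt-nd6 follows mt-nd5 and is known to be encoded on the opposite strand. Per 100 UMIs of mt-atp6, mt-atp8 had 14.7 UMIs in the ErbBi and 3.05 in the untreated library, a ratio of 4.82 (4.23 to 5.47). Per 100 UMIs of mt-nd4, mt-nd4l had 10.3 and 4.03, a ratio of 2.55 (1.99 to 3.25). Per 100 UMIs of mt-nd5, mt-nd6 had 18.2 and 8.57, a ratio of 2.12 (1.47 to 3.02). These quotients need no library total, so the choice of scaling does not touch them.

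The excess of mt-atp8 was found in every class. Its level was 409.7 CPM in melanin-high, 188 in gch2-high, 368 in twist1a-high, 302 in foxd3-positive and 316 in remaining cells of the ErbBi library. In the untreated library the same classes had 84.0, 80.7, 98.1, 97.2 and 82.3 CPM. All 5 ErbBi values thus lay above all 5 untreated values. Per mt-atp6 UMI, the ratio between the libraries lay between 2.24 (1.06 to 4.31) in gch2-high cells and 5.82 in melanin-high cells. The libraries also differed among cells of like depth in the filtered table. ErbBi cells of under 2000, of 2000 to 4000 and of 4000 to 8000 UMIs had 357, 328 and 391 CPM. Untreated cells of the same depths had 37.6, 88.1 and 93.9 CPM. For mt-nd4l over mt-nd4 the class ratios ran from 1.98 (0.996 to 3.70) in remaining cells to 3.97 in melanin-high cells. For mt-nd6 over mt-nd5, melanin-high cells had 3.50 (1.60 to 7.10) and remaining cells 2.38 (1.04 to 5.29). Those of gch2-high cells, 2.70 (0.490 to 10.0), and twist1a-high cells, 2.04 (0.929 to 4.64), were within counting error of 1. The gch2-high value came from 3 ErbBi and 12 untreated UMIs of mt-nd6. The ratio in foxd3-positive cells, 0.389 (0.0454 to 1.51), was also within counting error, from 2 ErbBi and 37 untreated UMIs.

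**Figure D2:**
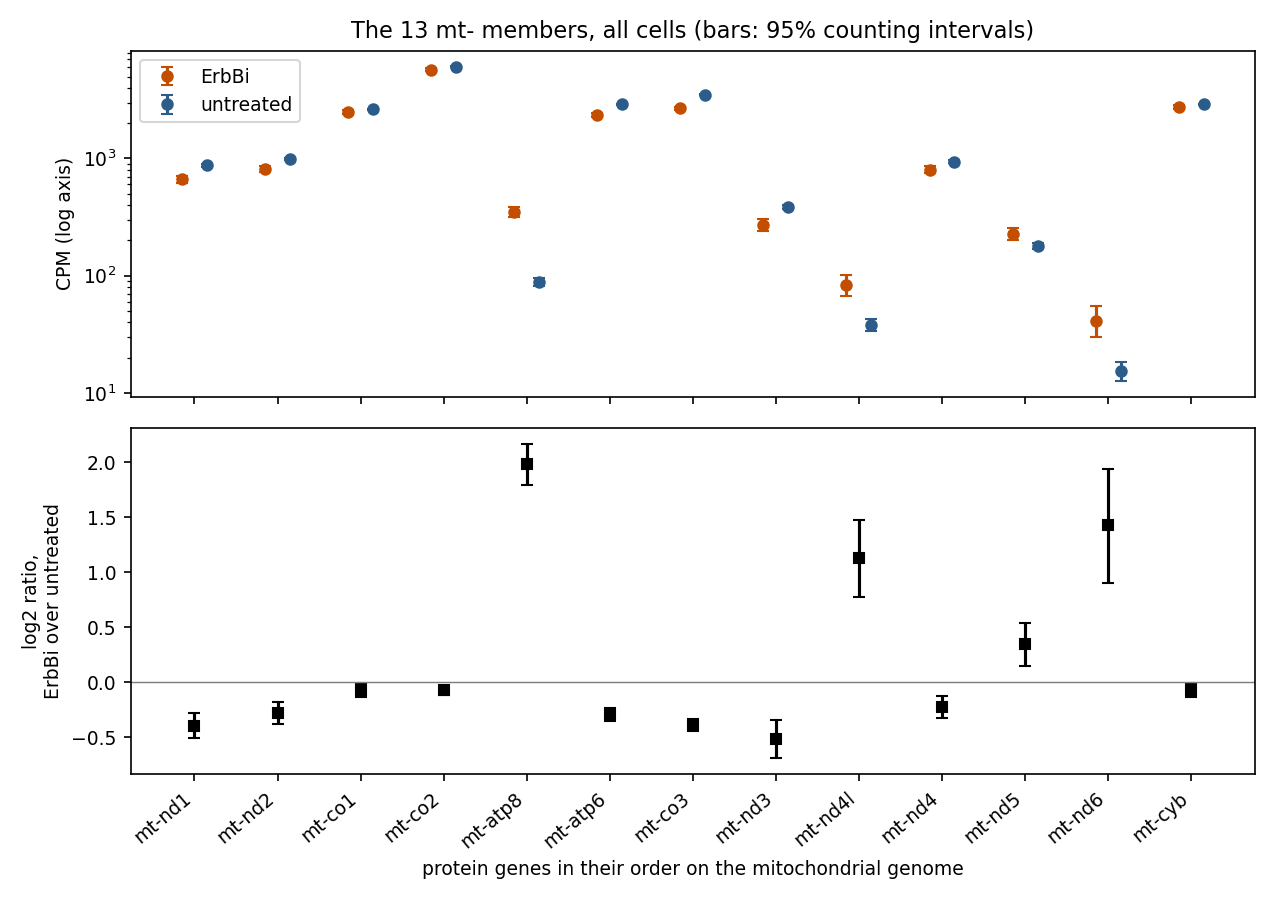
The 13 mitochondrial members are shown in RefSeq gene order (horizontal) over all cells, above with the CPM of each library on a log axis, ErbBi points left of untreated points, and below with the log2 ratio, ErbBi over untreated, with bars for 95% counting intervals. mt-atp8 at 1.98, mt-nd4l at 1.13 and mt-nd6 at 1.43 lie far above 0, while mt-atp6 and mt-nd4 lie below it.

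The nuclear members that were lowest in the ErbBi library, among those with at least 100 UMIs, came from several complexes. sdhc, which anchors complex II in the membrane, had 110.5 CPM in the ErbBi and 175 CPM in the untreated library, a ratio of 0.631 (0.520 to 0.760). NDUFS8, an iron-sulphur subunit of complex I, had 36.8 and 57.3 CPM, a ratio of 0.643 (0.454 to 0.887). These were the 2 members at least 1.5-fold lower. The complex IV subunits cox5aa and cox6b1 followed with ratios of 0.716 (0.645 to 0.794) and 0.744 (0.552 to 0.985), and sdhaf3, an assembly factor of complex II, had 0.729 (0.514 to 1.01). With each class given the same weight in both libraries, the mean of its 2 shares of the cells, the log2 ratio of sdhc was −0.43, against −0.66 as collected.

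The highest ratios were those of 2 members that have a paralogue. COX7A2 (ENSDARG00000110700), a small subunit of complex IV, had 101 CPM in the ErbBi and 66.1 CPM in the untreated library, a ratio of 1.52 (1.23 to 1.87). atp5mea, subunit e of the ATP synthase, had 121 and 84.9 CPM, a ratio of 1.43 (1.18 to 1.72). With the same class weights in both libraries their log2 ratios were 0.19, against 0.61 as collected, and 0.02, against 0.51. Within the classes no ratio of either gene lay beyond counting error. Those of COX7A2 (ENSDARG00000110700) were 0.894 in melanin-high, 1.07 in twist1a-high, 1.34 (0.801 to 2.14) in foxd3-positive and 1.29 (0.793 to 2.03) in remaining cells, with 0 ErbBi and 16 untreated UMIs in gch2-high cells. Those of atp5mea were 0.653 in melanin-high, 1.07 in twist1a-high, 1.11 in foxd3-positive and 1.36 (0.853 to 2.11) in remaining cells, with 1 ErbBi and 55 untreated UMIs in gch2-high cells. The ratios of sdha, the flavoprotein of complex II, UQCRC2, a core protein of complex III, and ndufb11, of the complex I membrane arm, were 1.16, 1.16 and 1.15. Their intervals reached 0.941, 0.977 and 0.950, and all 3 turned to log2 ratios of −0.15 to −0.16 on the TMM scale.

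Single assembly factors differed between the libraries by no more than counting error. ndufaf3, which acts early in building complex I, had 72.8 CPM in the ErbBi and 71.1 CPM in the untreated library, and sdhaf1, which acts on the iron-sulphur subunit of complex II, had 7.19 and 4.56 CPM. ndufaf1 had 49.4 and 43.6 CPM and sdhaf4 had 39.5 and 49.7 CPM. The ratios of the other complex I factors were 0.886 for ndufaf2, 0.934 for ndufaf4, 0.909 for ndufaf5, 1.07 for ndufaf6, 1.06 for ndufaf7 and 0.839 for ndufaf8, and sdhaf2, which attaches the cofactor of sdha, was at 0.958. Of the ATP synthase inhibitor, which blocks the enzyme from running in reverse, atp5if1a had 492 and 531 CPM and atp5if1b had 232 and 252 CPM. Their combined ratio was 0.925 (0.858 to 0.996).

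Within cell classes the nuclear total was lowest relative to the untreated library in foxd3-positive cells. There the ErbBi cells had 3.04% of UMIs in nuclear members and the untreated cells 3.81%, a ratio of 0.798 (0.773 to 0.823). The middle range of single cells ran from 2.46% to 3.43% in the ErbBi and from 3.39% to 4.17% in the untreated library, so the upper quartile of one lay close to the lower quartile of the other. The ratios were 0.933 (0.912 to 0.954) in melanin-high, 0.997 (0.955 to 1.04) in gch2-high, 0.925 (0.907 to 0.942) in twist1a-high and 0.932 (0.910 to 0.955) in remaining cells. The interval of the foxd3-positive cells lay below those of the other 4 classes. Their median depth was 2501 UMIs in the ErbBi and 8161 UMIs in the untreated library. Over 12 alternatives, including thinning to equal depth, their log2 ratio lay between −0.33 and −0.23. Thinning kept the classes set at full depth, so it cannot show how depth affects which cells meet the rule of 1 foxd3 UMI. None of the 12 uses TMM factors. The TMM shift of −0.36 comes from whole libraries and would lower the ratio further, but no TMM factors were computed within classes.

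**Figure D3:**
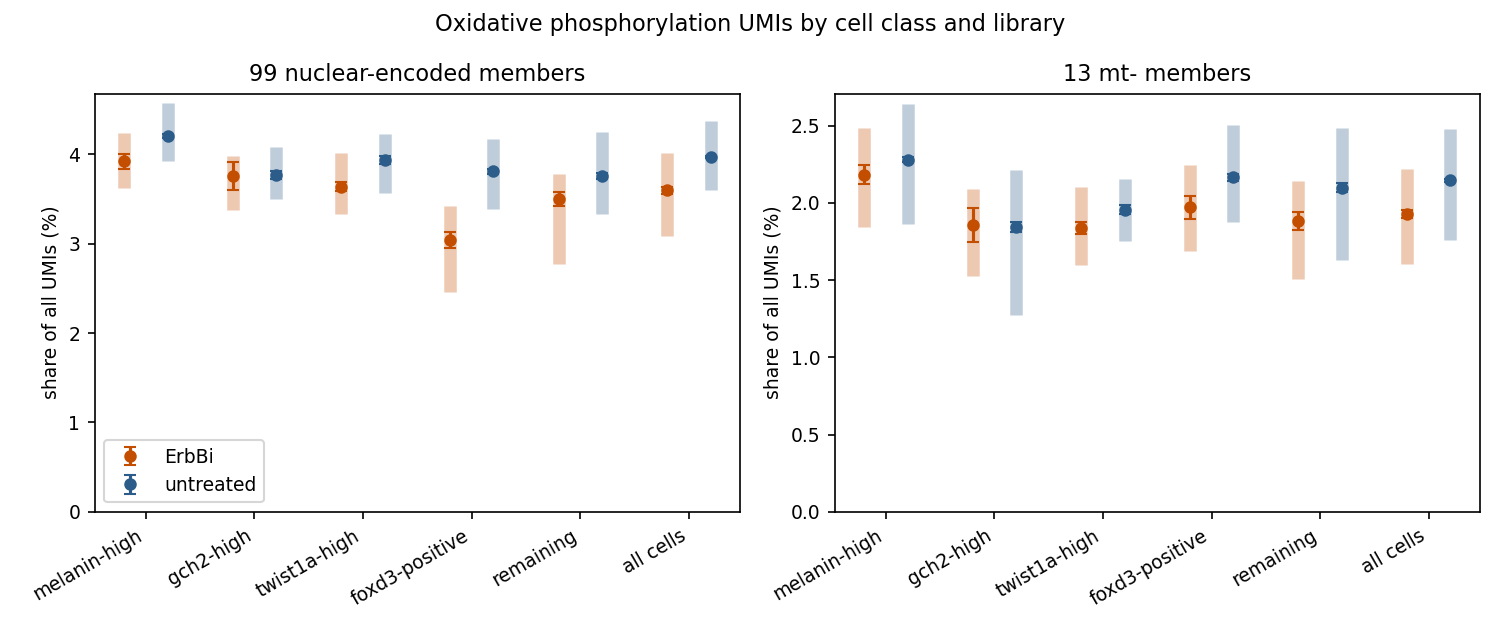
The share of all UMIs in nuclear members (left panel) and mitochondrial members (right panel), in percent (vertical), is shown for each class (horizontal), ErbBi left of untreated; points are pooled shares with 95% counting intervals and pale bars span the middle range of single cells, quartile to quartile. The foxd3-positive ErbBi cells have the lowest pooled nuclear share, 3.04%, and the melanin-high untreated cells the highest, 4.21%.

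The lower level in foxd3-positive cells spanned most members. Of 91 nuclear members with at least 50 UMIs, 14 were higher and 77 lower in ErbBi cells. Of all 3721 genes, 1715 were higher and 2006 lower. The median log2 ratios were −0.31 and −0.05. At least 1.5-fold lower were 19 of the members, where 18.5% of all genes were, and 1 was 1.5-fold higher, where 13.1% were. The count of large changes thus lies near that of other genes while the median does not. Among genes with at least 500 UMIs, 44 of 48 members and 339 of all 521 genes were lower, with medians of −0.31 and −0.09. Of these members 0 were at least 1.5-fold higher and 7 lower, where 1.73% and 6.53% of all genes were. By complex the ratios were 0.724 (0.683 to 0.768) for complex IV, 0.762 (0.680 to 0.850) for complex III, 0.843 (0.790 to 0.899) for complex I and 0.843 (0.799 to 0.888) for complex V. Complex II, at 1.08 (0.861 to 1.34), was not lower beyond counting error by library totals. The mitochondrial total had a ratio of 0.910 (0.875 to 0.946).

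The 7 well-counted members at least 1.5-fold lower in foxd3-positive cells, several of them singled out after their values were seen, included 4 subunits of complex IV. cox5aa had 230.1 CPM in the ErbBi and 453 CPM in the untreated cells, a ratio of 0.508 (0.345 to 0.723). COX7A2 (ENSDARG00000053217) had 589.6 and 955 CPM, a ratio of 0.617 (0.488 to 0.771), the regulatory subunit cox4i1 had 338 and 520.3 CPM, and cox7b had 956 and 1462 CPM. The other 3 were uqcrq of complex III, at 237 and 405 CPM, ndufb9 of complex I, at 223 and 336 CPM, and the inhibitor atp5if1a, at 331 and 541 CPM. In contrast mt-co2 (0.994), mt-cyb (1.02) and uqcrfs1 (0.982), the Rieske iron-sulphur protein of complex III, had ratios near 1. Neural tube markers summed to 173 CPM (24 UMIs) in these ErbBi cells and 44.8 CPM in the untreated ones, and mesenchyme markers to 539 and 136 CPM. Both lists were also higher in ErbBi cells of other classes. In melanin-high cells neural tube markers had 90.5 and 31.6 CPM, and mesenchyme markers 643 and 82.3 CPM. In remaining cells neural tube markers had 184 and 195 CPM. The part of these markers in the lower level was not tested.

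By nuclear total the other classes differed less between the libraries. Their mitochondrial totals did not all differ less. Remaining cells had 1.88% of UMIs in mitochondrial members in the ErbBi and 2.10% in the untreated library. Foxd3-positive cells had 1.97% and 2.17%. The mitochondrial shares were 2.18% and 2.28% in melanin-high, 1.86% and 1.84% in gch2-high, and 1.84% and 1.96% in twist1a-high cells. In melanin-high cells 0 of 93 nuclear members were at least 1.5-fold higher and 3 lower, where 17.9% and 13.3% of all genes were, and the median log2 ratio was −0.12 against 0.04. In twist1a-high cells 1 of 88 was higher and 4 lower (9.89% and 4.56% of all genes), with medians of −0.10 and 0.03. In gch2-high cells, of which the ErbBi library had 19, 4 of 81 were higher and 10 lower (14.9% and 17.0%), with medians of 0.00 for both. In remaining cells 1 of 89 was higher and 5 lower (12.5% and 13.7%), with medians of −0.12 and −0.01. Among genes with at least 500 UMIs the medians of members and all genes lay closer in 3 classes. They were −0.12 and −0.07 in melanin-high, −0.10 and −0.08 in twist1a-high, and −0.12 and −0.09 in remaining cells. In gch2-high cells they were −0.03 and −0.06. Of the 81 nuclear members with the minimum in all 5 classes, 16 were lower in the ErbBi library in each of them, 28 in 4 of them and 1 in none. Of all 1646 genes with that minimum, 15.4% were lower in all 5 classes, 20.2% in 4 and 10.8% in none.

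Among the classes, melanin-high cells devoted the largest part of their transcripts to oxidative phosphorylation in both libraries. Relative to remaining cells of the same library, their nuclear total was 1.12 times as high in the ErbBi (1.09 to 1.16) and in the untreated library (1.11 to 1.13). Their mitochondrial total was 1.16 (1.11 to 1.21) and 1.09 (1.069 to 1.102) times as high. The ErbBi remaining cells include the 2 cells richest in nuclear members, and the untreated ones the haemoglobin-rich cell. Without these cells, melanin-high and remaining cells had 3.925% and 3.33% nuclear UMIs in the ErbBi and 4.21% and 3.79% in the untreated library. Mitochondrial shares were then 2.18% and 1.78%, and 2.28% and 2.12%. Both ratios over remaining cells were then higher in the ErbBi than in the untreated library. The values that follow in this paragraph keep these cells. Complex III was at 1.27 (1.15 to 1.41) in the ErbBi and 1.27 (1.22 to 1.32) in the untreated library, and complex II at 1.21 (0.957 to 1.52) and 1.253 (1.154 to 1.361). Complex V was at 1.06 in each. In the untreated library 71 of 94 nuclear members were higher and 23 lower. Of all 5539 genes, 2594 were higher and 2945 lower. The median log2 ratios were 0.14 and −0.05. Of these members, 1 was at least 1.5-fold higher and 4 lower, where 19.4% and 21.6% of all genes were. In the ErbBi library 9 of 73 were 1.5-fold higher and 0 lower, where 22.3% and 17.2% were.

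**Figure D4:**
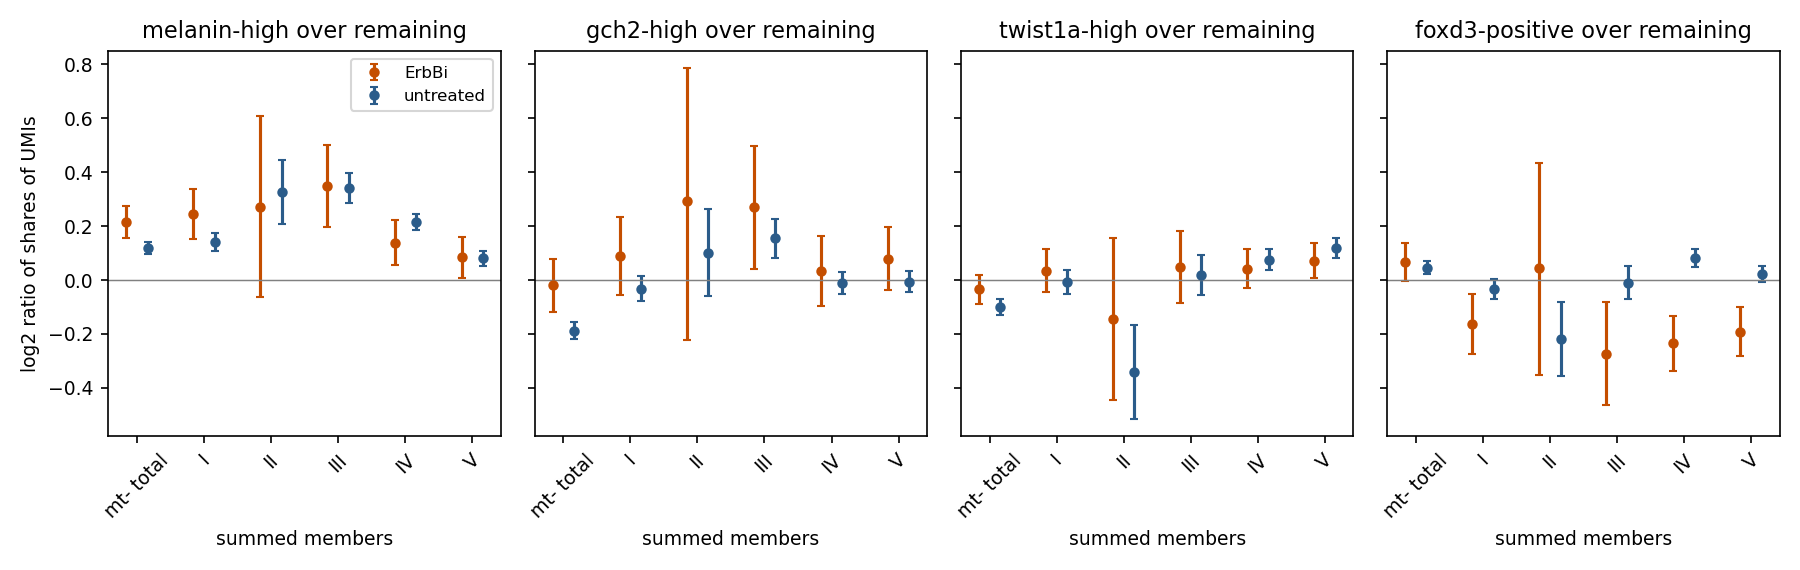
Log2 ratios (vertical) of the share of UMIs in all mitochondrial members and in the nuclear members of each complex (horizontal) are shown for 4 classes over remaining cells of the same library, with ErbBi points left of untreated points and bars for 95% counting intervals. Complex III in melanin-high cells lies at 0.35 in the ErbBi and 0.34 in the untreated library, and complexes I, III, IV and V of foxd3-positive ErbBi cells lie at −0.16 to −0.27.

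The member with the highest ratio in untreated melanin-high cells was uqcrfs1, the Rieske protein, at 673 CPM against 439 CPM in remaining cells, a ratio of 1.53 (1.39 to 1.70). In the ErbBi library it had 557 against 404 CPM, a ratio of 1.38. It was followed in untreated cells by sdhb, the iron-sulphur subunit of complex II, at 363 against 259 CPM (1.40, 1.23 to 1.61), the complex I subunits ndufs6 and ndufb3 (1.38 and 1.35), and COX7A2 (ENSDARG00000053217) at 1247 against 911 CPM (1.37, 1.28 to 1.47). At the low end COX7A2 (ENSDARG00000110700) had 32.0 against 85.1 CPM, a ratio of 0.376 (0.279 to 0.507), and atp5mea had 51.0 against 87.0 CPM, a ratio of 0.587 (0.450 to 0.769). The other low members were ndufaf2 (0.579), cox6b1 (0.630) and sdhaf3 (0.722). Beyond counting error, 14 of the 112 members were higher and 2 lower in melanin-high cells of both libraries, where 3.68% and 3.94% of the 12248 genes with at least 10 UMIs were. The higher ones included uqcrfs1, uqcrh, uqcr10, mt-co3, mt-nd4 and mt-cyb, and the 2 lower ones were COX7A2 (ENSDARG00000110700) and atp5mea. This rule favours well-counted genes. Over both libraries 83 of the 99 nuclear members, but only 2090 of all 18723 genes, had at least 500 UMIs. The shares of genes beyond counting error in both libraries, here and below, are thus not matched for UMI count.

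Cells of the gch2-high class combined a nuclear total close to that of remaining cells with a lower mitochondrial one in the untreated library. Their mitochondrial total was 0.987 (0.922 to 1.06) of that of remaining cells in the ErbBi and 0.878 (0.859 to 0.897) in the untreated library, and all 12 mitochondrial members with the minimum were lower in gch2-high than in remaining cells of the untreated library. Their median log2 ratio was −0.11, while 2254 of all 3527 genes were lower and the median over all genes was −0.17. Their nuclear total was 1.07 (1.02 to 1.12) and 1.00 (0.987 to 1.02). Without the cells that stand apart, gch2-high and remaining cells had 3.76% and 3.33% nuclear UMIs in the ErbBi library. In the untreated library they had 3.77% and 3.79%. Of 91 nuclear members in the untreated library, 42 were higher and 49 lower, 0 by 1.5-fold and 4 by 1.5-fold, where 9.84% and 21.5% of all genes were. In the ErbBi library 5 of 66 were 1.5-fold higher and 4 lower, where 15.3% and 18.8% were. Here too COX7A2 (ENSDARG00000110700) was lowest, at 21.9 CPM against 85.1 CPM in remaining cells (0.257, 0.141 to 0.441), with 0 UMIs in the gch2-high and 25 in the remaining cells of the ErbBi library. cox6b1, a complex IV subunit on the cytochrome c side, came next, at 28.7 against 87.0 CPM (0.330, 0.195 to 0.535). The complex I subunits ndufa8, at 149 against 209 CPM (0.712, 0.561 to 0.899), and ndufs5, at 227 against 304 CPM (0.747, 0.616 to 0.904), were also lower, and ndufb1 of the same complex had 72.5 against 98.2 CPM (0.739, 0.521 to 1.04). The highest ratio was 1.32, of the complex I subunit ndufa10 at 246 against 187 CPM. COX7A2 (ENSDARG00000053217) had 1139.8 against 911 CPM, a ratio of 1.252 (1.140 to 1.374). The complex III core protein uqcrc2a, at 75.3 against 58.0 CPM, and ndufs3 of the complex I matrix arm, at 208 against 172 CPM, were within counting error of remaining cells. uqcrfs1, at 535 against 439 CPM, and uqcrh were the 2 of 112 members higher beyond counting error in both libraries, and 2 were lower, where 1.53% and 1.37% of the 12248 genes were.

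In untreated twist1a-high cells sdhc and sdha of complex II were low and some ATP synthase genes high. sdhc had 102 CPM against 177 CPM in remaining cells of the untreated library, a ratio of 0.577 (0.438 to 0.753), and sdha had 63.7 against 93.5 CPM (0.681). In the ErbBi library the ratios of the same genes were 0.977 and 1.12. The other subunits of complex II were within counting error in untreated cells, sdhb at 219 against 259 CPM (0.846, 0.695 to 1.03) and SDHD (ENSDARG00000030139) at 158 against 165 CPM (0.960, 0.757 to 1.22). Complex II as a whole had a ratio of 0.904 (0.736 to 1.12) in the ErbBi and 0.790 (0.700 to 0.891) in the untreated library. At the high end atp5mea had 162 against 87.0 CPM (1.86, 1.41 to 2.46), atp5if1a 705 against 475 CPM (1.48, 1.31 to 1.68) and ATP5MC3, which encodes the rotating c subunit, 977 against 673 CPM (1.45, 1.31 to 1.61). cox7a2l, which takes part in joining complexes into supercomplexes, had 294 against 204 CPM (1.44, 1.19 to 1.75), and ndufaf1, an assembly factor of complex I, had 70.1 against 44.9 CPM (1.56, 1.04 to 2.35). ndufv1, which carries the flavin of complex I, had 58.6 against 80.4 CPM (0.729, 0.498 to 1.05), and ndufa8 172 against 209 CPM (0.821, 0.658 to 1.02). Of the genes at the high end, atp5if1a (1.31) and ATP5MC3 (1.29) were also higher beyond counting error in the ErbBi library. Over 92 nuclear members 2 were at least 1.5-fold higher and 2 lower, where 17.7% and 22.8% of all genes were, and the medians were 0.02 and 0.03. In the ErbBi library 1 of 81 was higher and 4 lower, where 12.5% and 10.2% were. The mitochondrial genes mt-co1 and mt-cyb were lower in both libraries, at 0.845 and 0.871 in the ErbBi and 0.942 and 0.818 in the untreated library. Beyond counting error 5 of 112 members were higher and 3 lower in both libraries, where 2.0% and 2.79% of the 12248 genes were.

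By nuclear total, foxd3-positive cells resembled remaining cells in the untreated library and lay below them in the ErbBi library. Their nuclear total was 0.868 (0.836 to 0.901) of that of remaining cells in the ErbBi library and 1.01 (1.00 to 1.03) in the untreated library. Their mitochondrial share was not lower, at 1.97% (1.90 to 2.05) against 1.88% (1.82 to 1.94) in the ErbBi library. In the untreated library it was 2.17% (2.14 to 2.19) against 2.10% (2.07 to 2.13). In the ErbBi library 53 of 69 nuclear members were lower and 16 higher, where 570 and 483 of all 1053 genes were. By 1.5-fold 6 members were lower and 0 higher, where 6.93% and 4.08% of all genes were. The median was −0.25 against −0.03. In the untreated library 0 of 93 were past 1.5-fold in either direction, where 6.78% of all genes were lower and 8.11% higher. At the low end were sdhb, at 196 against 259 CPM (0.757, 0.644 to 0.891), and ndufb9 of complex I (0.831, 0.732 to 0.943). The assembly factors sdhaf4, at 41.3 against 57.0 CPM (0.724, 0.507 to 1.04), and ndufaf5, at 36.7 against 50.5 CPM (0.726, 0.497 to 1.06), and the complex II anchor sdhc, at 146 against 177 CPM (0.827, 0.682 to 1.00), had low ratios within counting error. At the high end were the complex IV subunits cox7c, at 2592 against 2264 CPM (1.145, 1.090 to 1.204), and cox6a1, at 775 against 680 CPM (1.14, 1.04 to 1.249), and ATP5MG, subunit g of the ATP synthase, at 894 against 784 CPM (1.14, 1.05 to 1.24). The higher ratios of atp5mea (1.27, 0.987 to 1.65) and COX7A2 (ENSDARG00000110700; 1.26, 0.974 to 1.64) were within counting error. In these cells 0 of 112 members lay on the same side of 1 beyond counting error in both libraries, where 0.425% of the 12248 genes were higher and 0.498% lower in both. The remaining cells of the ErbBi library hold the 2 cells richest in nuclear members. Without these and the haemoglobin-rich cell, remaining cells had 3.33% of UMIs in nuclear members in the ErbBi and 3.79% in the untreated library, against 3.50% and 3.76% with them.

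Several subunits are encoded by a pair of paralogues, and in some of these pairs the share of each partner in the UMIs differed by class. COX7A2 (ENSDARG00000110700) gave 2.82% of its pair's UMIs in melanin-high, 0% in gch2-high, 14.0% in twist1a-high, 19.6% in foxd3-positive and 11.7% in remaining cells of the ErbBi library. In the untreated library the same classes had 2.50%, 1.88%, 11.2%, 10.1% and 8.54%. The pigment-gene classes were thus below the other 3 in both libraries. atp5mea, paired with atp5meb, gave 5.60%, 2.27%, 25.2%, 25.4% and 19.4% in the ErbBi and 6.83%, 11.8%, 24.9%, 17.3% and 13.4% in the untreated library, in the same order of classes. Its share in untreated gch2-high cells overlapped that in remaining cells within counting error. Over all cells the share of COX7A2 (ENSDARG00000110700) was 11.0% (9.17 to 13.1) in the ErbBi and 5.75% (5.26 to 6.27) in the untreated library. How the authors' counting treated UMIs that fit both of 2 similar paralogues was not tested.

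Other pairs varied less regularly among classes. cox6b1 gave 3.43% to 7.03% of its pair with cox6b2 in the ErbBi and 2.26% (gch2-high) to 7.16% (remaining) in the untreated library. cox5aa, paired with COX5A, gave 53.1% over all cells in the ErbBi and 59.6% in the untreated library, and atp5if1a gave 65.8% to 71.4% and 63.1% to 74.9% of the inhibitor pair. For pairs with a rare partner, cox4i2 was at 0.613% and 0.596% of its pair with cox4i1, and SDHD (ENSDARG00000055712) at 3.72% and 2.77% of its pair. Values for ndufab1b with NDUFAB1 were 54.2% and 51.6%, for uqcrc2a with UQCRC2 27.5% and 33.8%, and for ATP5MC3 with atp5mc3b 33.1% and 31.6%. ndufa4b, paired with NDUFA4, was at 0.740% and 0.261%. All 5 of its ErbBi UMIs were in remaining cells, 3 of them in the 2 cells that stand apart.

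**Figure D5:**
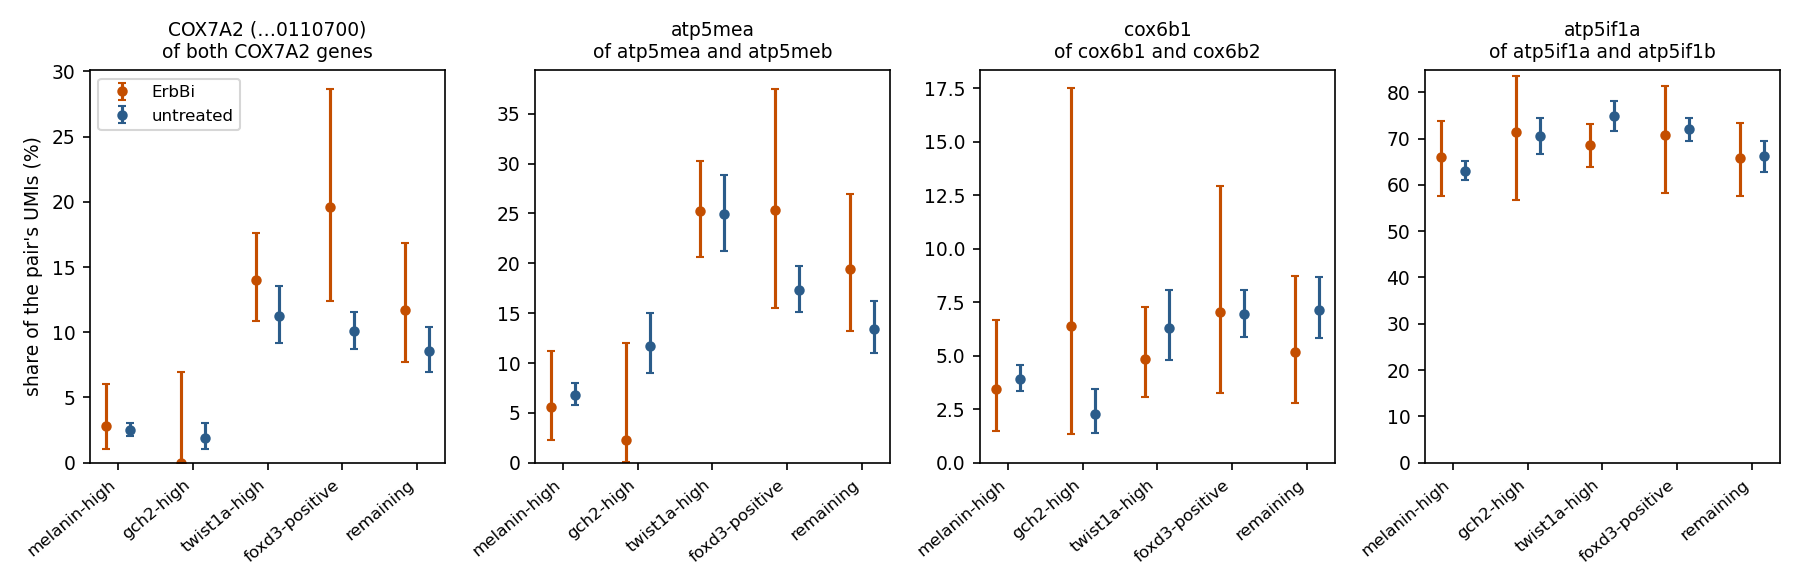
The share of a pair's UMIs given by 1 paralogue, in percent (vertical, a scale for each panel), is shown for 4 pairs by class (horizontal) with ErbBi points left of untreated points and bars for exact 95% binomial intervals. Shares of COX7A2 (ENSDARG00000110700) in melanin-high and gch2-high cells lie at 0% to 2.82%, below the 8.54% to 19.6% of the other classes.

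Genes that feed or regulate the respiratory chain, taken from fixed lists, did not all go with the members. The counts past 1.5-fold given for them between the libraries stand against 24.6% of all genes higher and 13.4% lower, with a median log2 ratio of 0.16. Between the libraries, the 2 electron carriers had a summed ratio of 0.789, with cycsb (cytochrome c) at 595 CPM in the ErbBi and 830 CPM in the untreated library and cyc1, the cytochrome of complex III whose symbol falls outside the rule, at 379 and 403 CPM. Of 15 glycolysis genes with the minimum, 1 was at least 1.5-fold higher and 6 lower, with a median of −0.52 and a summed ratio of 0.708. Within the classes the summed glycolysis ratio was 0.868 in melanin-high, 0.688 in gch2-high and 0.967 (0.879 to 1.06) in twist1a-high cells. It was 0.774 in foxd3-positive and 0.847 in remaining cells. ALDOA (ENSDARG00000011665, an aldolase) had 839.9 and 1135 CPM, and LDHB, a lactate dehydrogenase, had 539.9 and 826 CPM. Citrate cycle genes had a ratio of 1.05, which falls below 1 on the TMM scale, with 2 of 17 higher and 1 lower, a median of 0.08, and mdh2, suclg1 and cs at ratios of 1.06, 0.929 and 1.04. The 75 mitochondrial ribosomal protein genes had a ratio of 1.01, likewise below 1 on the TMM scale, with 2 higher, 1 lower and a median of 0.03.

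Of the other lists, 3 of 4 regulators were at least 1.5-fold higher in the ErbBi library, with a median of 1.14, against 24.6% and 0.16 over all genes. Among them pprc1, a coactivator related to PGC-1, had 90.7 CPM in the ErbBi and 43.8 CPM in the untreated library, and gabpa, a transcription factor of nuclear genes for mitochondrial proteins, had 83.5 and 35.8 CPM. Mitochondrial carriers and pores had a ratio of 0.986, with the ADP/ATP carrier slc25a5 at 5161 and 5218 CPM and vdac2 at a ratio of 1.03. Assembly factors outside the name rule had a ratio of 0.909, with 0 of 26 higher and 3 lower. Genes of mitochondrial transcription and RNA had a ratio of 0.935, with 0 of 5 past 1.5-fold. In foxd3-positive cells the ribosomal protein genes of the mitochondrion were low together with the members, at 0.822 (0.767 to 0.881), with 24 of 71 at least 1.5-fold lower and 3 higher, where 18.5% of all genes were lower and 13.1% higher, and with medians of −0.31 and −0.05. The citrate cycle there was at 1.254 (1.101 to 1.422), higher than in the untreated cells by UMI totals. It was also higher in twist1a-high cells, at 1.161 (1.062 to 1.269), and in remaining cells, at 1.167 (1.047 to 1.299). In melanin-high and gch2-high cells it was within counting error of 1, at 0.990 and 1.067. With the TMM shift of whole libraries the citrate cycle ratios above 1 would fall below it, but no TMM factors were computed within classes.

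In melanin-high cells the summed electron carriers and glycolysis genes were above those of remaining cells in both libraries, and the citrate cycle genes in the untreated one. Electron carriers were at 1.47 (1.22 to 1.77) in the ErbBi and 1.41 (1.32 to 1.51) in the untreated library, with 1 of 2 at least 1.5-fold higher in each. Glycolysis was at 1.35 (1.19 to 1.54) and 1.32 (1.26 to 1.38), and the citrate cycle at 1.088 (0.949 to 1.248) and 1.28 (1.22 to 1.35). Past 1.5-fold in the ErbBi library were 0 of 3 glycolysis genes, and of 6 citrate cycle genes 1 was higher and 1 lower, where 22.3% of all genes were higher and 17.2% lower. In the untreated library 4 of 12 glycolysis genes were higher and 2 lower, and 4 of 17 citrate cycle genes were higher and 0 lower, where 19.4% and 21.6% of all genes were. Citrate synthase, cs, had 279 CPM in untreated melanin-high cells, against 120 CPM in untreated remaining cells, a ratio of 2.33, and cycsb had 1056 against 691 CPM. The mitochondrial ribosomal proteins were at 0.961 (0.896 to 1.03) and 0.943 (0.919 to 0.967), and the regulators at 0.632 and 0.507. In gch2-high cells glycolysis was at 1.304 and 1.60 and the citrate cycle at 0.983 and 1.07. In twist1a-high cells glycolysis was below remaining cells, at 0.727 and 0.637, while genes of mitochondrial transcription and RNA were above, at 1.46 and 1.34. In foxd3-positive cells glycolysis was at 0.827 and 0.904 and the ribosomal proteins at 0.825 and 0.979.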

How the data were processed

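The authors deposited counts of UMIs per gene and cell in an unfiltered and a filtered table, from 10x 3' version 2 libraries of polyA RNA per the labels' protocols. FastQC 0.11.7, Cell Ranger 2.1.1 and GRCz11 are named in the submitters' processing notes. The filtered table kept 1347 of 1519 cells, all with at least 701 genes, with 0 differing values. The number of unused per-sample columns was 0. Cell names end in 1 or 2, read as untreated and ErbBi. Only the sample titles give this reading, and were it wrong, every direction between the libraries would be opposite. 6 cell barcodes occur in both libraries. Symbols came from a name table (96.0% of genes), in zebrafish spelling where RefSeq has it.

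UMIs were summed per library and class and divided by the total (CPM). These 3'-end counts are not length-scaled, so levels of different genes are not ranked, and a share within a paralogue pair is a share of UMIs. CPM has exact Poisson intervals, shares exact Clopper-Pearson intervals, and ratios exact conditional binomial intervals, at 95%, for counting error only. With 1 library per treatment there is no test, and cells are not replicates. Counts past 1.5-fold used genes with at least 50 UMIs in the 2 groups together. Members, classes and lists were chosen with earlier results of these data known. Named were all mitochondrial genes, the 5 highest and 5 lowest nuclear ratios among members with at least 100 UMIs (between libraries, and per class in the untreated library), paralogue pairs, assembly factors, inhibitors, and list genes of highest count.

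Scripts used Python 3.11.15, numpy 2.4.6, pandas 2.3.3, scanpy 1.11.5 (Scrublet, which marked 1 ErbBi and 3 untreated cells, kept in the main values), matplotlib 3.10.9, R 4.3.3 and edgeR 4.0.16 (TMM factors). The ratio code was tested on simulated data. Alternatives covered scaling, denominator, weighting, the authors' filter, thinning to 1900 UMIs, depth range, class thresholds, doublets, minimum UMIs and fold.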

Additional observations from a re-analysis of the deposited data

Results flagged for a closer look

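UQCRC2, a core protein of complex III, went opposite ways in 2 classes. Its ErbBi over untreated ratio was 1.64 (1.14 to 2.33) in remaining cells, from 44 ErbBi and 126 untreated UMIs at 193 and 118 CPM, and 1.63 without the 2 cells richest in nuclear members. In foxd3-positive cells the ratio was 0.503 (0.227 to 0.973), from 9 ErbBi and 221 untreated UMIs at 64.7 and 129 CPM. The other classes had ratios of 1.35, 0.982 and 1.24 in melanin-high, gch2-high and twist1a-high cells. With 1 library each, the difference between the classes was not tested.

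mt-atp8 was also seen in cells that the authors left out for few detected genes. The 149 ErbBi cells left out had 108 CPM (11 UMIs, 53.8 to 193), below the 348 CPM of the ErbBi cells kept. This interval holds the 88.1 CPM of the untreated cells kept. The ErbBi cells left out thus showed no excess over the untreated cells kept beyond counting error. The 23 untreated cells left out had 0 of 32185 UMIs, which allows up to 93.2 CPM by the limit of 3 counts.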

How the results depend on the processing

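The direction of both totals and of the median between libraries held under every alternative run. The nuclear total (log2 −0.14) moved beyond counting error to −0.51 with TMM, −0.52 with median-of-ratios factors, −0.17 in cells of 2000 to 6000 UMIs, and −0.16 both without the 3 cells that stand apart and without melanin genes and gch2 in the denominator, 2 alternatives chosen after seeing the data. The mitochondrial total (−0.15) moved to −0.52, −0.53, −0.18 (thinned), −0.10 (equal class weights, each class taking the mean of its shares of the cells in both libraries) and −0.23 (2000 to 6000 UMIs). The median (−0.14) moved to −0.50, −0.52, −0.16, −0.10, −0.18 and −0.15 (the other denominator). Members at least 1.5-fold higher (1) became 2 in cells of 2000 to 6000 UMIs and at the smaller fold tried, and 0 with TMM, median-of-ratios, the unfiltered table, thinning, equal weights and 2-fold. Members 1.5-fold lower (2) became 31 with TMM, 35 with median-of-ratios, 1 with the unfiltered table, thinning, equal weights or at least 500 UMIs, 5 in cells of 2000 to 6000 UMIs, 16 at the smaller fold and 0 at 2-fold. The 0 classes with a higher nuclear total in ErbBi became 1 on thinning and at 2000 to 6000 UMIs, and the 1 class with a higher mitochondrial total became 0 with the unfiltered table, the stricter class thresholds and the other denominator. Of 4 classes above remaining cells in the untreated nuclear total, 1 was left under the stricter thresholds. Of 2 classes above in the ErbBi mitochondrial total, 1 was left under them and 4 without the 3 cells. Among totals whose interval left out 0, signs reversed for the mitochondrial total of melanin-high cells between libraries (0.042 without cells meeting several rules), and for nuclear totals over remaining cells in untreated twist1a-high (−0.0086, stricter), untreated foxd3-positive (−0.027 thinned, −0.067 stricter) and ErbBi gch2-high cells (−0.015, stricter). A further 6 totals within counting error of 0 also changed sign, to values between −0.15 and 0.071. Signs also changed for 2 genes whose interval left out 0, mt-nd5 (TMM) and mt-cyb (0.030, equal weights). They changed for 4 genes within counting error of 0 as well. These were sdha, ndufb11 and UQCRC2 (TMM), and sdhc in untreated foxd3-positive over remaining cells (0.16, thinned). sdha was also negative in cells of 2000 to 6000 UMIs. The cause was not tested. Among other results 118 values moved and 886 stayed within counting error. No paired analysis was possible because there is only 1 library per treatment, and for that reason no replicate could be left out. Thinning left out 68 ErbBi and 53 untreated cells. Depth limits single members in ErbBi classes to few UMIs, such as the 9 of UQCRC2 in foxd3-positive cells.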

Other observations

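The 2 ErbBi cells richest in nuclear members, both in the remaining class, carried genes of other tissues. A cell of 1650 UMIs had 16.2% of its UMIs in nuclear and 10.4% in mitochondrial members, with 23 of the library's 59 UMIs of the sodium pump gene atp1a1a.2 and 39 of its 73 UMIs of fxyd11, which encodes a regulator of that pump. A cell of 2520 UMIs had 10.9% and 4.96%, with 32 of the 56 UMIs of icn, 28 of the 40 UMIs of agrp and 15 of those of fxyd11. These genes were chosen after their values were seen. The untreated cell richest in haemoglobin UMIs had 0.959% of its 12618 UMIs in nuclear members.

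Cells below the authors' limit on detected genes did not lack the members. The 149 ErbBi cells left out had 2.12% of UMIs in mitochondrial and 3.64% in nuclear members, and the 23 untreated cells left out had 2.97% and 3.81%.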
